A study of Rattus norvegicus with 30 samples.

Results

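Matrix proteases cut the proteins of the extracellular matrix and of the basement membrane around brain vessels, and their inhibitors hold them in check. The set described here held 10 genes of this system: the tissue inhibitors of metalloproteinases Timp1, Timp2 and Timp3, the matrix metalloproteinases Mmp2, Mmp12, Mmp14 and Mmp19, the secreted protease Adamts1, the urokinase-type plasminogen activator Plau and its receptor Plaur. They were taken by gene symbol from the platform's annotation, 1 probe set per gene, and all 10 had a probe set among the 14506 genes named on the array. All 10 also passed the filter on dim probe sets and were among the 11675 genes tested.

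The values came from microglia, the resident macrophages of the brain, of male rats after an ischemic stroke made by blocking the middle cerebral artery with a filament for 75 min. There were 10 groups of 3 arrays: the injured (ipsilateral) hemisphere, then the opposite (contralateral) hemisphere, on day 14 and on day 3, and sham controls, each for rats of 12 and of 3 months. The questions of the study were how expression in microglia changes between these days and whether older brains differ in this. The labels disagree on the strain, which the sample characteristics give as Wistar Kyoto and the protocols as spontaneously hypertensive rats, for all groups alike. No transgene or deletion was named for any group. The sources used here do not say how the microglia were isolated or which hemisphere the sham samples came from. The sample codes tie the 2 hemispheres of each of 12 stroke animals together, while nothing says that the 3 sham arrays of an age were separate animals, so that their spread may be technical. At 3 months the day 3, the day 14 and the sham samples each carry a code number of their own, and all 12-month samples share another. The sources used here do not explain this number, and at 3 months the comparisons with sham and between days cannot be told apart from it, nor can the comparison of ages in sham. The hemispheres of an animal share the number, so that a shift common to both cancels in their difference. When hemisphere differences are compared between ages, or between days at 3 months, the number still moves with the groups.

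As background, urokinase binds its receptor on the cell surface and turns plasminogen into plasmin, which degrades fibrin and activates some metalloproteinases. Metalloproteinases are made as inactive precursors, and Mmp14, a membrane-bound member, activates Mmp2 in a complex with Timp2. After stroke, proteases of this system are known for opening the blood-brain barrier early and for remodelling of tissue and vessels later.

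The deposited values were log2 signals. Arrays of 1 group correlated at 0.987 to 0.995 over all probe sets (Pearson's r), and array medians ran from 5.06 to 5.24. The standard deviation of the values was smaller on the stroke arrays of 3-month rats, at 1.79 to 1.93, than on the others, at 1.94 to 2.05, and quantile normalization over all arrays was among the alternatives. Markers of microglia were bright, with a mean log2 signal over 9 marker genes of 9.22 to 10.28 on every array. The depth of such data is set by the number of arrays, 3 per group. A gene was called where limma's adjusted p (Benjamini-Hochberg over the 11675 genes of a comparison) was under 0.05, and differences are given in log2 units with the standard error of that model, which rests on all 30 arrays.

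In the injured hemisphere, 4 of the 10 genes rose against the opposite hemisphere at both ages and on both days: Timp1, Plau, Plaur and Mmp12. Mmp14 rose on day 3 at both ages and Mmp2 on day 3 at 12 months, while Timp2 fell on day 3 at both ages. Adamts1 was lower than in the opposite hemisphere at 3 months on both days, where it was not called against sham. Timp3 and Mmp19 were called in no hemisphere comparison. In these bulk samples fewer cells of a type and less RNA per cell cannot be told apart. At 12 months on day 14, 4 members rose and none fell, against 10.9% of all genes tested that rose and 5.94% that fell. On day 3 at that age 6 rose and 1 fell, against 18.7% and 10% of all genes. At 3 months on day 14, 4 rose and 1 fell, against 13.2% and 7.09%, and on day 3 5 rose and 2 fell, against 11.5% and 8.95%. In the same order, the arrays of the hemispheres did not overlap for 6, 7, 5 and 7 members, against 31.4%, 45.9%, 29.8% and 30% of all genes. The median difference over the 10 members was 0.16, 0.48, 0.14 and 0.74, and over all genes tested it was -0.01 in each of these comparisons.

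The promoters of the 4 genes that rose in all 4 hemisphere comparisons are shown because these members shared the direction of their hemisphere difference. They are RefSeq sequences of the build GRCr8, from 250 bases before to 50 bases after the start that the table gives for the gene, and capitals mark the letters TGANTCA, the core that AP-1 transcription factors bind, which reads the same on both strands. Of the 10 members, 7 had a promoter in the table (not Mmp2, Mmp14 and Mmp19), and 2 of these 7 held the letters, Mmp12 and Plaur. Over all 33469 promoters of the same length, 2453 or 7.33% held them. A match is a description of the letters and shows no binding. The windows lie at chrX:3771073-3771372 on the minus strand for Timp1, chr15:3511938-3512237 on the minus strand for Plau, chr1:89181113-89181412 on the plus strand for Plaur and chr8:12866402-12866701 on the plus strand for Mmp12. The windows of Plau, Plaur and Mmp12 lie at the outer end of the annotated gene, while that of Timp1 lies inside the gene's full annotated span.
Timp1: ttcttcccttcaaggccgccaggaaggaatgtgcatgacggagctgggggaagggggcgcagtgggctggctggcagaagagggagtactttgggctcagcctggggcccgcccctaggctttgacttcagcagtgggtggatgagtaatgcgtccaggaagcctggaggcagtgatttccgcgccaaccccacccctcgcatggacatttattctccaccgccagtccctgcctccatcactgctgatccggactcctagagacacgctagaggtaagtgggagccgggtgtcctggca
Plau: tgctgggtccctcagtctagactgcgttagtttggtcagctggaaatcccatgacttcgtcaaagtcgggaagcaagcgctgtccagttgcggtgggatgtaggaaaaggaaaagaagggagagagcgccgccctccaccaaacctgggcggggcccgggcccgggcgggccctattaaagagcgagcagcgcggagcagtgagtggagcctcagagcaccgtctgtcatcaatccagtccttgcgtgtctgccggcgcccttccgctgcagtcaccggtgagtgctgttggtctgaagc
Plaur: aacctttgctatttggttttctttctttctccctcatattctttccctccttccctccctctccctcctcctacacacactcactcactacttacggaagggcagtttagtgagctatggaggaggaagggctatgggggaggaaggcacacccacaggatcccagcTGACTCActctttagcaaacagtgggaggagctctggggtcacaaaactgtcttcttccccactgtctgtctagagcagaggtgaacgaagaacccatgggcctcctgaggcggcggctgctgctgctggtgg
Mmp12: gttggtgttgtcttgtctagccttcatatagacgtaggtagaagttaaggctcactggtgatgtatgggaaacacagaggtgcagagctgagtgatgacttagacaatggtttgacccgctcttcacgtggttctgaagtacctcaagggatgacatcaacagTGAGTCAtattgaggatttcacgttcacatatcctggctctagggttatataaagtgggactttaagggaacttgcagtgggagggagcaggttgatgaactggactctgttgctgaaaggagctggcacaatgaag
The letters began 83 bases before the start of Plaur and 87 bases before that of Mmp12.

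**Figure D1:**
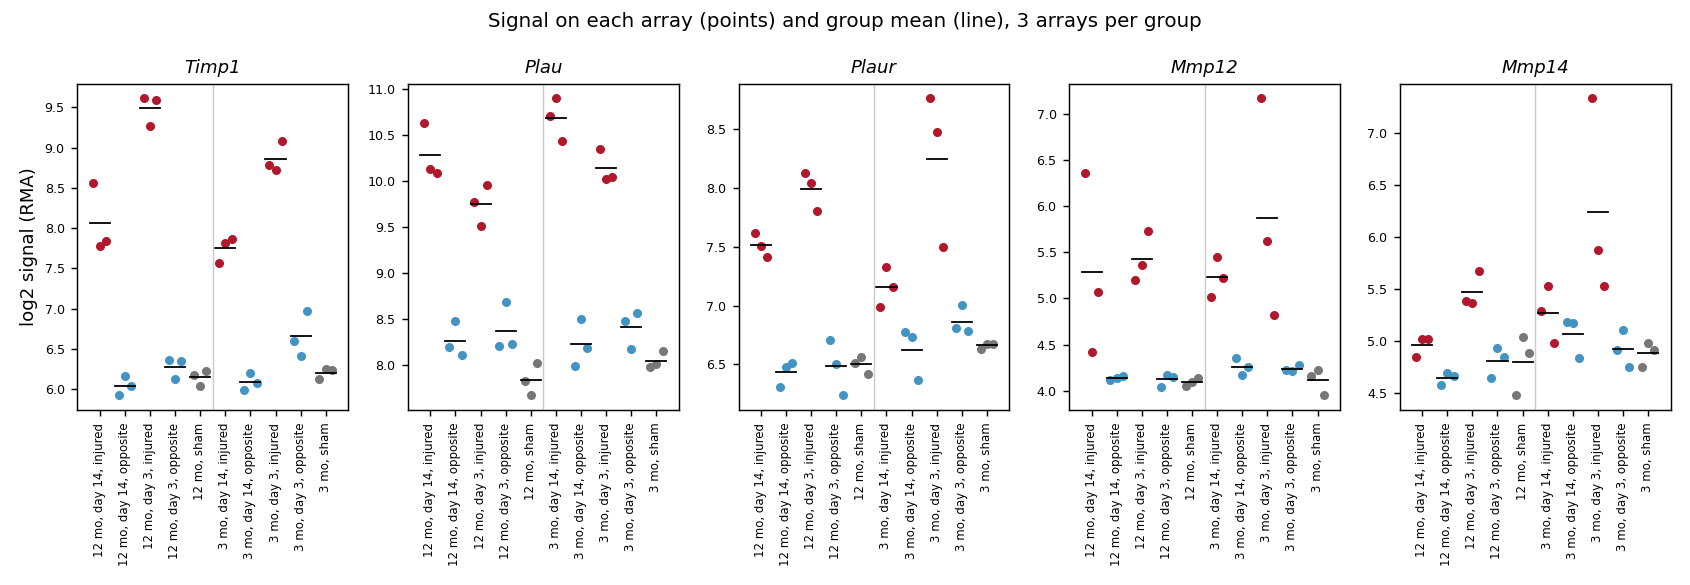
Log2 signal on each array (points) and group mean (line) of Timp1, Plau, Plaur, Mmp12 and Mmp14, with 3 arrays per group, 12-month groups on the left and the injured hemisphere (red) before the opposite hemisphere (blue) and sham (grey). Every panel has its own scale. Timp1 and Plau separate all injured arrays from all others, and single injured arrays reach 7.17 for Mmp12 and 7.33 for Mmp14.

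Timp1, a secreted inhibitor that binds most metalloproteinases, had the largest hemisphere difference of the 10 members on day 3 at both ages. At 12 months on day 14 it measured 8.56, 7.78 and 7.84 in injured hemispheres, against 5.93, 6.16 and 6.04 in the opposite ones. Its day 3 signals at that age were 9.61, 9.26 and 9.59 in injured hemispheres, against 6.36, 6.12 and 6.35 in the opposite ones. The 12-month injured arrays thus lay well above the opposite ones on both days, and higher on day 3. In 3-month rats the day 14 signals were 7.57, 7.82 and 7.86 in injured hemispheres, against 5.99, 6.21 and 6.08 in the opposite ones. The day 3 signals were 8.78, 8.72 and 9.09 in injured hemispheres, against 6.60, 6.42 and 6.97 in the opposite ones. Sham arrays measured 6.17, 6.04 and 6.23 at 12 months and 6.13, 6.25 and 6.23 at 3 months, among the values of the opposite hemisphere. No injured array overlapped with any opposite or sham array.

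The hemisphere difference of Timp1 was 2.02 ± 0.15 at 12 months on day 14, a 4.05-fold rise (adjusted p = 3.5e-11). On day 3 it was 3.21 ± 0.15 at that age, or 9.26-fold (adjusted p = 2.9e-15). At 3 months it was 1.66 ± 0.15 on day 14 (adjusted p = 2.3e-09) and 2.20 ± 0.15 on day 3 (adjusted p = 2.0e-11). The difference was positive in 12 of 12 animals, with a lowest value of 1.59, a median of 2.15 and a highest of 3.25. In the order of its group means, the injured hemispheres of 12 months on day 3, of 3 months on day 3, of 12 months on day 14 and of 3 months on day 14 came first, and only the third and the fourth of these overlapped in their arrays. Below them, the opposite hemisphere at 3 months on day 3 stood clear of the other 5 groups, whose neighbours in that order overlapped.

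Plau, the urokinase-type activator that cleaves plasminogen, was brighter in the injured hemisphere on every array as well. In 12-month rats it measured 10.62, 10.13 and 10.08 on day 14 in injured hemispheres, against 8.19, 8.47 and 8.10 in the opposite ones. Day 3 gave 9.77, 9.51 and 9.95 in injured hemispheres, against 8.21, 8.68 and 8.23 in the opposite ones. Here, unlike for Timp1, the day 14 arrays were the brighter ones. At 3 months the day 14 signals were 10.70, 10.89 and 10.43 in injured hemispheres, against 7.99, 8.50 and 8.18 in the opposite ones. The day 3 signals were 10.35, 10.02 and 10.04 in injured hemispheres, against 8.48, 8.18 and 8.57 in the opposite ones. Sham arrays measured 7.83, 7.67 and 8.02 at 12 months and 7.97, 8.01 and 8.15 at 3 months, below or among the values of the opposite hemispheres. The lowest injured array, at 9.51, lay above the highest of the others, at 8.68.

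Between hemispheres Plau differed by 2.02 ± 0.16 at 12 months on day 14, or 4.06-fold (adjusted p = 1.0e-10), and by 1.37 ± 0.16 on day 3 (adjusted p = 1.2e-07). At 3 months the difference was 2.45 ± 0.16 on day 14, or 5.47-fold (adjusted p = 1.6e-12), and 1.73 ± 0.16 on day 3 (adjusted p = 3.8e-09). It was positive in 12 of 12 animals, from 0.83 to 2.71 with a median of 1.85. The 4 injured groups came first in the order of group means, with 3 months on day 14 at the top and 12 months on day 14, 3 months on day 3 and 12 months on day 3 after it. The first 3 of these overlapped with their neighbours, and 12 months on day 3 stood clear of the groups above and below.

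Plaur, the receptor that holds urokinase at the cell surface, rose in all 4 hemisphere comparisons as well. At 12 months it measured 7.62, 7.51 and 7.41 on day 14 in injured hemispheres, against 6.31, 6.48 and 6.51 in the opposite ones. On day 3 it measured 8.13, 8.04 and 7.81 in injured hemispheres, against 6.71, 6.51 and 6.24 in the opposite ones. The hemispheres did not overlap on either day at this age. In younger rats, of 3 months, the day 14 signals came closest, with 6.99, 7.32 and 7.16 in injured hemispheres, against 6.78, 6.73 and 6.37 in the opposite ones. The day 3 signals were 8.76, 8.48 and 7.50 in injured hemispheres, the last of them well below the others, against 6.81, 7.00 and 6.78 in the opposite ones. Sham arrays measured 6.51, 6.57 and 6.42 at 12 months and 6.63, 6.68 and 6.67 at 3 months, close to the opposite hemisphere.

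Differences of Plaur between hemispheres were 1.08 ± 0.18 at 12 months on day 14 (adjusted p = 6.0e-05) and 1.51 ± 0.18 on day 3 (adjusted p = 2.1e-07). At 3 months they were 0.53 ± 0.18 on day 14 (adjusted p = 0.038) and 1.38 ± 0.18 on day 3 (adjusted p = 1.4e-06). All 12 animals were higher in the injured hemisphere, from 0.21 to 1.96 with a median of 1.17. The call at 3 months on day 14 was lost without replicate 2 or 3 of the injured group or replicate 3 of the opposite group, with a highest adjusted p of 0.18.

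Mmp12, the macrophage metalloelastase, was dim outside the injured hemisphere. It exceeded the 30th percentile of the array's signals on 17 of 30 arrays, which included all 12 injured ones. In 12-month rats it measured 6.36, 4.42 and 5.07 on day 14 in injured hemispheres, against 4.11, 4.13 and 4.16 in the opposite ones. For day 3 the signals were 5.20, 5.36 and 5.73 in injured hemispheres, against 4.04, 4.17 and 4.15 in the opposite ones. The opposite arrays were nearly equal, whereas 1 injured array of day 14 stood far above the other 2. At 3 months the day 14 signals were 5.01, 5.45 and 5.22 in injured hemispheres, against 4.36, 4.17 and 4.26 in the opposite ones. The day 3 signals were 7.17, 5.62 and 4.82 in injured hemispheres, against 4.23, 4.22 and 4.27 in the opposite ones. Sham arrays measured 4.05, 4.10 and 4.13 at 12 months and 4.15, 4.23 and 3.95 at 3 months. No injured array overlapped with the opposite or sham arrays, but the spread among injured arrays of 1 group reached an SD of 1.19.

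The hemisphere difference of Mmp12 was 1.15 ± 0.35 at 12 months on day 14 (adjusted p = 0.021) and 1.31 ± 0.35 on day 3 (adjusted p = 0.0049). At 3 months it was 0.97 ± 0.35 on day 14 (adjusted p = 0.049). On day 3 the fitted difference was 1.63 ± 0.35 (adjusted p = 0.00086), and since all 3 opposite arrays were at or below the 30th percentile there it is read as at least 1.56. Without injured replicate 1 it was 0.98 (adjusted p = 0.017). It was positive in 12 of 12 animals, from 0.28 to 2.94 with a median of 1.17. At 12 months on day 14, leaving out injured replicate 1 gave 0.61 (adjusted p = 0.27), and the call was also lost without any 1 of the opposite arrays. At 3 months on day 14, leaving out any 1 of the 6 arrays ended the call, and with the animal as a fixed block the adjusted p was 0.055.

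**Figure D2:**
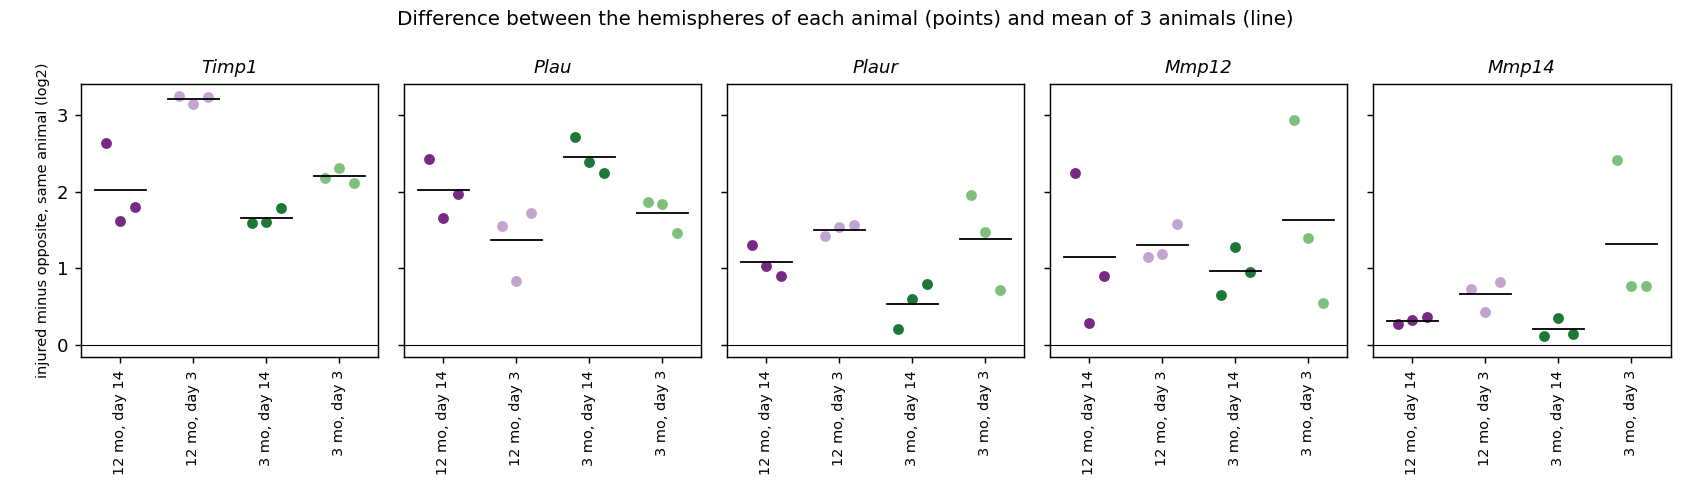
Difference between the injured and the opposite hemisphere of the same animal in log2 units (points, 12 animals) and mean of the 3 animals of an age and day (line), for the same 5 genes on 1 scale. All points lie above 0, and the values of Timp1 at 12 months on day 3 lie between 3.14 and 3.25, while Mmp12 and Mmp14 have 1 high animal at 3 months on day 3.

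Mmp14, which sits in the cell membrane and activates Mmp2, was called on day 3 only. In 12-month rats it measured 4.85, 5.02 and 5.02 on day 14 in injured hemispheres, against 4.58, 4.69 and 4.66 in the opposite ones, a difference of 0.32 ± 0.25 (adjusted p = 0.45). On day 3 it measured 5.38, 5.36 and 5.67 in injured hemispheres, against 4.65, 4.94 and 4.85 in the opposite ones, a difference of 0.66 ± 0.25 (adjusted p = 0.043). The arrays did not overlap on either day, and leaving out any 1 of the 6 day 3 arrays raised the adjusted p above the threshold, up to 0.16. In younger rats, of 3 months, the day 14 signals were 5.29, 5.53 and 4.98 in injured hemispheres, against 5.18, 5.18 and 4.84 in the opposite ones, a difference of 0.20 ± 0.25 (adjusted p = 0.62). On day 3 they were 7.33, 5.87 and 5.53 in injured hemispheres, against 4.91, 5.11 and 4.75 in the opposite ones, a difference of 1.32 ± 0.25 (adjusted p = 0.00016). Injured replicate 1 stood apart there, and without it the difference was 0.78 (adjusted p = 0.00066). Sham arrays measured 4.48, 5.04 and 4.89 at 12 months and 4.76, 4.98 and 4.91 at 3 months. The difference was positive in 12 of 12 animals, from 0.11 to 2.42 with a median of 0.39.

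The array of injured replicate 1 at 3 months on day 3, which had the highest Mmp12 and Mmp14 signals, also had the highest level of 3 marker lists in its group. The mean log2 signal of 11 markers of infiltrating monocytes and macrophages was 8.48 there, against 7.72 and 7.22 on the other injured arrays of the group. For 8 markers of border-associated macrophages it was 7.57, against 7.21 and 7.08, and for 12 neutrophil markers 6.77, against 6.64 and 5.96. At 12 months on day 14, injured replicate 1, which had the highest Mmp12 signal of its group, measured 6.99 for the monocyte and macrophage list, against 6.47 and 6.52, and 6.66 for the border-associated list, against 5.60 and 5.87. Mmp14 was lowest of its group on that array, at 4.85 against 5.02 and 5.02. The part of these cells in the values of Mmp12 and Mmp14 was not tested.

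**Figure D3:**
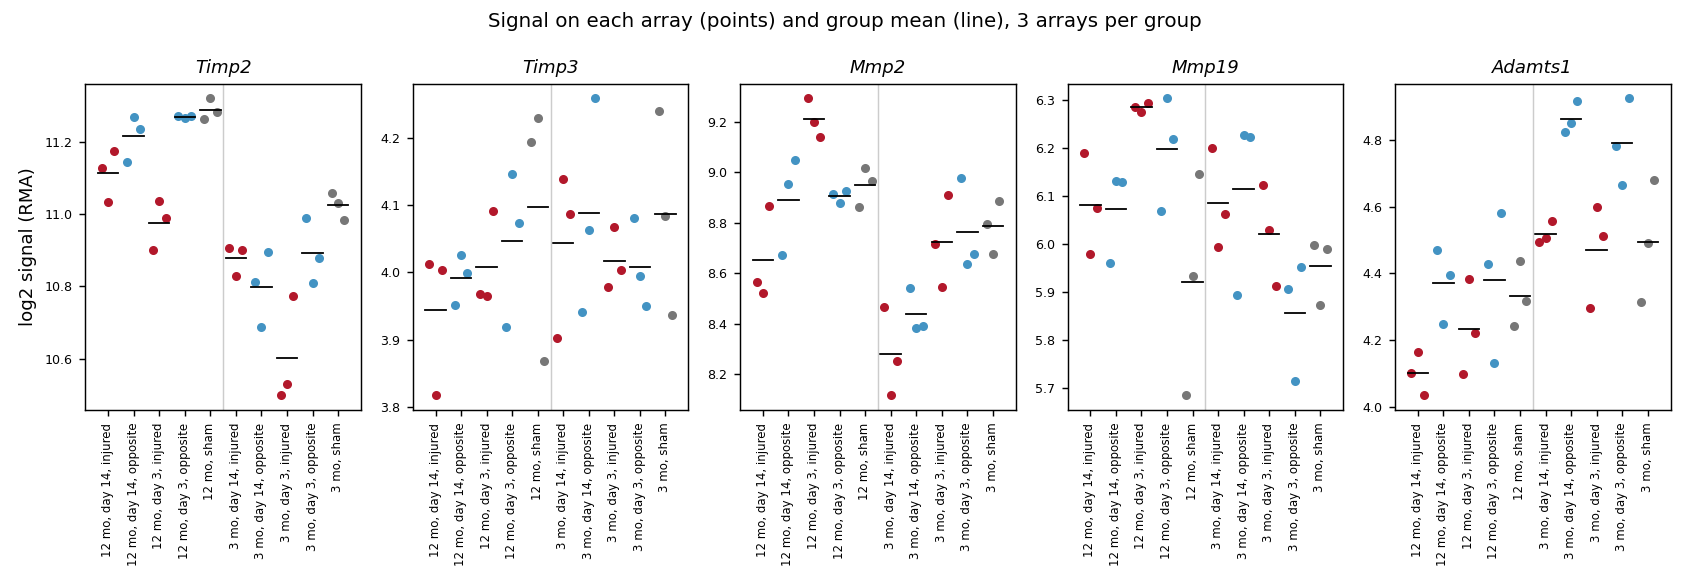
Log2 signal on each array (points) and group mean (line) of Timp2, Timp3, Mmp2, Mmp19 and Adamts1, with 3 arrays per group and groups placed as in the plot of the rising genes. Each panel has its own narrow scale, and the whole range over 30 arrays is 10.50 to 11.32 for Timp2 and 3.82 to 4.26 for Timp3.

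Timp2, an inhibitor that also takes part in the activation of Mmp2, was among the bright genes and moved little. The 12-month signals of day 14 were 11.13, 11.03 and 11.17 in injured hemispheres, against 11.14, 11.27 and 11.24 in the opposite ones, a difference of -0.10 ± 0.08 (adjusted p = 0.44). Its day 3 signals at that age were 10.90, 11.04 and 10.99 in injured hemispheres, against 11.27, 11.27 and 11.27 in the opposite ones, a difference of -0.29 ± 0.08 (adjusted p = 0.0052). The fall on day 3 was small but larger than the spread of the opposite arrays, whose values were equal to 2 decimals. In 3-month rats the day 14 signals were 10.90, 10.83 and 10.90 in injured hemispheres, against 10.81, 10.69 and 10.89 in the opposite ones, a difference of 0.08 ± 0.08 (adjusted p = 0.54). Those of day 3 were 10.50, 10.53 and 10.77 in injured hemispheres, against 10.99, 10.81 and 10.88 in the opposite ones, a difference of -0.29 ± 0.08 (adjusted p = 0.0078). The 3-month call on day 3 was lost without replicate 1 of either hemisphere, with a highest adjusted p of 0.065. Sham arrays measured 11.26, 11.32 and 11.28 at 12 months and 11.06, 11.03 and 10.98 at 3 months. The injured hemisphere was the brighter one in 3 of 12 animals.

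Timp3, an inhibitor that binds to the matrix, was dim throughout, from 3.82 to 4.26, and exceeded the 30th percentile of its array on 4 of 30 arrays. It was called in none of the comparisons. In both day 14 hemisphere comparisons and in the 3-month one of day 3, every array of both groups was at or below that percentile, so that a difference would not have been measurable there. Mmp19, a secreted metalloproteinase, ranged from 5.69 to 6.30. It was called once, in injured hemispheres against sham at 12 months on day 3, with a difference of 0.36 ± 0.11 (adjusted p = 0.0071) that was lost without sham replicate 1 (adjusted p = 0.09).

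Mmp2, gelatinase A, which degrades basement membrane collagen, had no common direction. At 12 months on day 14 it measured 8.57, 8.52 and 8.86 in injured hemispheres, against 8.67, 8.95 and 9.05 in the opposite ones, a difference of -0.24 ± 0.11 (adjusted p = 0.17). Day 3 gave 9.29, 9.20 and 9.14 in injured hemispheres, against 8.91, 8.88 and 8.93 in the opposite ones, a difference of 0.30 ± 0.11 (adjusted p = 0.045). The arrays did not overlap on day 3, but the call was lost when any 1 of the 6 arrays was left out and under quantile normalization (0.20, adjusted p = 0.17). In 3-month rats the day 14 signals were 8.47, 8.12 and 8.25 in injured hemispheres, against 8.54, 8.38 and 8.39 in the opposite ones (adjusted p = 0.36). By comparison, day 3 had 8.72, 8.55 and 8.91 in injured hemispheres, against 8.98, 8.64 and 8.68 in the opposite ones (adjusted p = 0.88). Sham arrays measured 8.86, 9.02 and 8.96 at 12 months and 8.80, 8.67 and 8.89 at 3 months, within the range of the stroke arrays of their age.

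Adamts1, a secreted protease that cleaves proteoglycans of the matrix, was dim and slightly lower in injured than in opposite hemispheres. The 12-month signals of day 14 were 4.10, 4.17 and 4.03 in injured hemispheres, all at or below the 30th percentile of their arrays, against 4.47, 4.25 and 4.40 in the opposite ones (adjusted p = 0.091). On day 3 it measured 4.10, 4.38 and 4.22 in injured hemispheres, against 4.43, 4.13 and 4.58 in the opposite ones (adjusted p = 0.35). Neither 12-month difference was called. At 3 months the day 14 signals were 4.49, 4.51 and 4.56 in injured hemispheres, against 4.83, 4.85 and 4.92 in the opposite ones, a difference of -0.35 ± 0.11 (adjusted p = 0.023). On day 3 they were 4.30, 4.60 and 4.51 in injured hemispheres, against 4.78, 4.67 and 4.93 in the opposite ones, a difference of -0.32 ± 0.11 (adjusted p = 0.033). The call of day 14 was lost without injured replicate 1 or 2 or opposite replicate 3 (adjusted p up to 0.074) and under quantile normalization (0.051). That of day 3 was lost without replicate 1 or 3 of either hemisphere (up to 0.2), and with the animal as a fixed block its adjusted p was 0.066. Sham arrays measured 4.24, 4.44 and 4.32 at 12 months and 4.31, 4.49 and 4.68 at 3 months. At 3 months the injured hemisphere differed from sham by 0.02 on day 14 and -0.03 on day 3 (adjusted p = 0.89 and 0.86). The opposite hemisphere there was above sham, by 0.37 and 0.30 in the same order. The injured hemisphere was the brighter one in 1 of 12 animals.

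**Figure D4:**
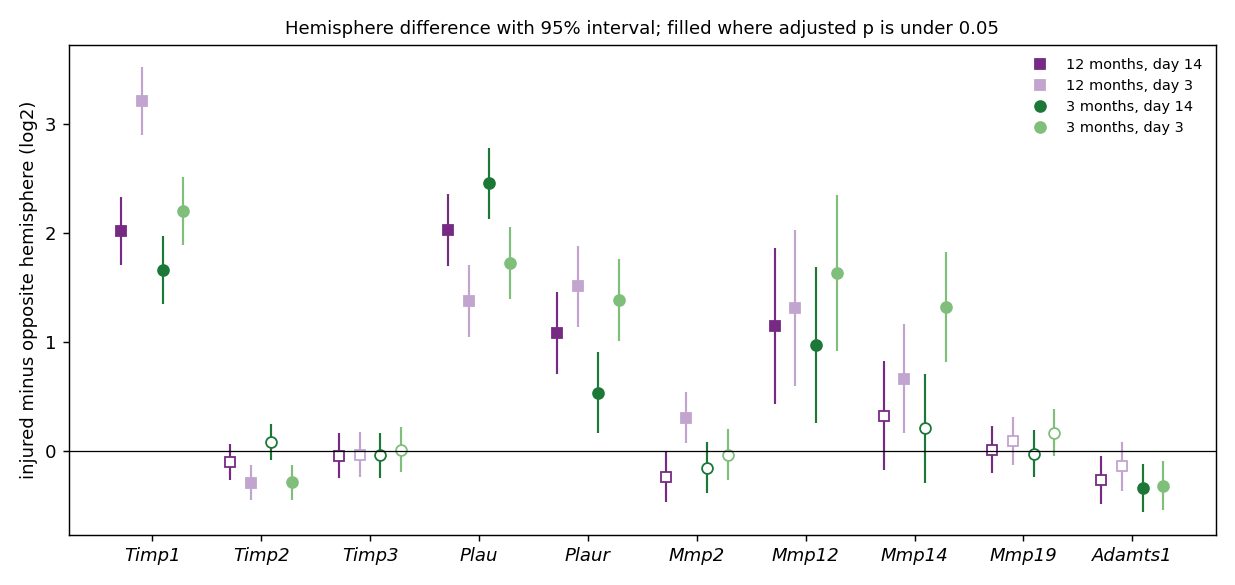
Difference between injured and opposite hemisphere in log2 units for the 10 genes, with its 95% interval from limma's model, for 12 months (squares) and 3 months (circles) on day 14 (dark colour) and day 3 (light colour). Filled symbols have an adjusted p under 0.05. Timp1 reaches 3.21 at 12 months on day 3 and Plau 2.45 at 3 months on day 14.

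Against sham of the same age, the injured hemisphere had higher Timp1, Plau, Plaur and Mmp12 at both ages and on both days. At 12 months on day 14, 4 of 10 rose and none fell, against 11.9% and 8.09% of all genes tested, and on day 3 6 rose and 1 fell, against 22.7% and 14.3%. At 3 months on day 14, 4 rose and 1 fell, against 11% and 23.4%, and on day 3 5 rose and 1 fell, against 20.9% and 35.9%. The median difference over the members was 0.16, 0.52, 0.26 and 0.71 in that order, and over all genes -0.01, -0.03, -0.04 and -0.06. Timp1 differed from sham by 1.92 and 3.34 at 12 months on day 14 and day 3, and by 1.55 and 2.66 at 3 months. Plau differed by 2.44 and 1.90 at 12 months, and by 2.63 and 2.09 at 3 months, so that its day 14 values were the larger ones at both ages. The injured arrays are the same as in the hemisphere comparisons. Mmp12 differed from sham by at least 1.13 and 1.28 at 12 months on day 14 and day 3, where all sham arrays were at or below the 30th percentile, and by 1.12 and 1.76 at 3 months. Its day 14 calls were lost without injured replicate 1 at 12 months (0.65, adjusted p = 0.21) and without injured replicate 2 at 3 months (adjusted p = 0.06). Plaur differed by 1.01 and 1.49 at 12 months and by 0.49 and 1.59 at 3 months, and its call at 3 months on day 14 (adjusted p = 0.036) was lost without any 1 sham array or without injured replicate 2 or 3. Mmp14 was above sham on day 3, by 0.67 at 12 months and 1.36 at 3 months, and the 12-month call was lost without sham replicate 1 or injured replicate 3 (adjusted p up to 0.16). Timp2 fell against sham on day 3, with -0.31 at 12 months and -0.42 at 3 months. Mmp2, not called between hemispheres at 3 months on day 14, fell against sham there, with -0.51 (adjusted p = 0.00079).

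The opposite hemisphere stood close to sham at 12 months for most members. With limma, 0 of 10 members were called on day 14, against 0.00857% of all genes, and 0 on day 3, against 1.28%; at an unadjusted p under 0.05 these counts were 1 (Plau) and 2 (Plau and Mmp19). Plau in the opposite hemisphere was above sham by 0.42 ± 0.16 on day 14 (adjusted p = 0.61) and by 0.53 ± 0.16 on day 3 (adjusted p = 0.13), and its arrays did not overlap with sham on either day. At 3 months it was above sham by 0.36 on day 3 (adjusted p = 0.059), without overlap, and by 0.18 on day 14 (adjusted p = 0.4), with overlap. At 3 months, where the code number moves with the group, 1 member rose and 2 fell on day 14, against 10.4% and 28.4% of all genes, and 2 rose and none fell on day 3, against 14.4% and 37.2%. The median difference over all genes was -0.06 and -0.10 in these comparisons, and over the members 0.07 and 0.08. Adamts1 was higher than sham by 0.37 on day 14 and 0.30 on day 3, and Timp1 by 0.46 on day 3. Mmp2 (-0.35) and Timp2 (-0.23) fell on day 14. Each of these calls was lost without 1 to 3 of the single arrays, sham replicate 1 among them for all but Mmp2, with a highest adjusted p of 0.16. None of these 5 calls but that of Timp1 was kept under quantile normalization, where Timp2 turned to 0.01 and Mmp2 stood at -0.05, with adjusted p = 0.91 and 0.77. Mmp2 on day 3 turned as well: without that normalization it was -0.06 against sham in the injured and -0.02 in the opposite hemisphere, neither called, and with it 0.28 and 0.35, both called.

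Between the days, the members of the injured hemisphere moved in both directions. At 12 months 1 rose by day 14 and 2 fell, against 6.53% and 14.1% of all genes, and at 3 months 2 rose and 4 fell, against 22% and 7.51%. The median difference over the members was -0.18 at 12 months and -0.21 at 3 months, and over all genes 0.00 and 0.05. Timp1 was lower on day 14 than on day 3, with a difference of -1.43 at 12 months (adjusted p = 2.6e-08) and of -1.11 at 3 months (adjusted p = 3.2e-06). Plau was higher on day 14, by 0.54 at 12 months (adjusted p = 0.017) and by 0.54 at 3 months (adjusted p = 0.011). Its call was lost at 12 months without injured replicate 1 of day 14 or replicate 2 of day 3, and at 3 months without replicate 2 of either day, with adjusted p up to 0.14 and 0.066. Mmp2 was lower on day 14, with -0.56 at 12 months (adjusted p = 0.00053) and -0.45 at 3 months (adjusted p = 0.0036). In the opposite hemisphere Mmp2 differed by -0.02 at 12 months and by -0.33 at 3 months (adjusted p = 0.99 and 0.067). The difference of its hemisphere effects between the days at 3 months was -0.12 (adjusted p = 0.76).

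The remaining day differences of the injured hemisphere were called at 3 months, where the day cannot be told apart from the code number, and not at 12 months, and whether the day differences of the ages differ was not tested. Plaur differed by -0.48 ± 0.18 at 12 months (adjusted p = 0.064) and by -1.09 ± 0.18 at 3 months (adjusted p = 4.1e-05). Mmp14 differed by -0.51 ± 0.25 at 12 months (adjusted p = 0.15) and by -0.97 ± 0.25 at 3 months (adjusted p = 0.0032), or by -0.43 without injured replicate 1 of day 3 (adjusted p = 0.039). Timp2 differed by 0.14 ± 0.08 at 12 months (adjusted p = 0.25) and by 0.28 ± 0.08 at 3 months (adjusted p = 0.009), a call lost without injured replicate 1 or 2 of day 3 (up to 0.055). In a fit to the arrays of the 12-month rats alone, Plaur and Mmp14 were called at that age too (adjusted p = 0.0038 and 0.005). In the opposite hemisphere, limma called 0 of 10 members at 12 months, against 1.06% of all genes, and 0 at an unadjusted p under 0.05. At 3 months 1 member was called, against 10.1%, which was Timp1 at -0.57 ± 0.15 (adjusted p = 0.017), lost without opposite replicate 3 of day 3 or replicate 1 of day 14.

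A shift shared by both hemispheres cancels in the difference of the hemisphere effects. At 12 months the effect of day 14 minus that of day 3 was called for 2 of 10 members, against 5.34% of all genes. For Timp1 it was -1.19 ± 0.22 (adjusted p = 0.0006), and the hemisphere difference was 2.02 on day 14 and 3.21 on day 3. For Mmp2 it was -0.54 ± 0.16 (adjusted p = 0.043), with a hemisphere difference of -0.24 on day 14 and 0.30 on day 3, and this call was lost in 10 of 12 fits without 1 array and when arrays were centred on their median (adjusted p = 0.052). At 3 months 0 of 10 members were called by limma, against 3.81% of all genes, and 5 had an unadjusted p under 0.05. These were Timp1 at -0.54 ± 0.22 (adjusted p = 0.17), Timp2 at 0.37 (0.061), Mmp14 at -1.12 (0.068), Plau at 0.73 (0.071) and Plaur at -0.85 (0.061). With the animal as a random block 3 of them were called, Timp2, Mmp14 and Plaur (adjusted p = 0.045, 0.049 and 0.043).

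With age, the hemisphere effect on day 3 differed for 1 of 10 members, against 1.58% of all genes. Age moved with the code number in this comparison, and only a shift shared by both hemispheres cancels. The 3-month stroke arrays also had the smaller standard deviations, at 1.79 to 1.93 against 1.94 to 2.05 on the others. The part of either in the age difference was not tested. Timp1 had a hemisphere difference of 3.21 at 12 months and 2.20 at 3 months, and the difference between the ages was 1.01 ± 0.22 (adjusted p = 0.011). The 3 animals of 12 months lay between 3.14 and 3.25 and the 3 animals of 3 months between 2.12 and 2.31, and without opposite replicate 3 of the 3-month group the adjusted p was 0.052. On day 14, limma called 0 of 10 members, against 0.00857% of all genes, and 1 (Plaur) had an unadjusted p under 0.05. In sham arrays Timp2 was the 1 member called, against 13% of all genes, and was higher by 0.26 ± 0.08 at 12 months (adjusted p = 0.026). That call was lost when any 1 of the 6 sham arrays was left out, and age cannot be told apart from the code number there.

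Other genes of the system were counted from lists. Mmp8, Mmp9, Anxa2, Fn1, Col1a1, Col1a2 and Col3a1 also stood on a list of cell markers, as did Dcn and Lum, which were too dim to be tested. Of 26 tested genes among the other metalloproteinases, TIMP, ADAM and ADAMTS genes, 1 rose and 1 fell in injured against opposite hemispheres at 12 months on day 14, and 3 rose and 2 fell on day 3. At 3 months 3 rose and 1 fell on each day. Over all genes tested, 10.9% rose and 5.94% fell at 12 months on day 14, and 18.7% and 10% on day 3. At 3 months the shares were 13.2% and 7.09% on day 14, and 11.5% and 8.95% on day 3. The same shares apply to the counts of every list and marker list below. The median difference of the list lay between -0.08 and 0.04 in the 4 comparisons, near that of all genes. Adam15, a membrane-bound metalloprotease, rose in all 4, by 0.94 and 1.33 at 12 months on day 14 and day 3 and by 0.66 and 0.90 at 3 months (SE 0.12). Mmp28, epilysin, fell in all 4, with -0.78, -0.79, -0.54 and -0.39 in the same order. Adam9 rose in 3, by 0.48 at 12 months on day 3 and by 0.42 and 0.57 at 3 months on day 14 and day 3.

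Of 18 tested genes of the plasminogen system and its regulators, 5 rose and none fell in each 12-month comparison and at 3 months on day 3, and 6 rose and 1 fell at 3 months on day 14. Their median difference was 0.16, 0.06, 0.18 and 0.01. Anxa2, which with S100a10 forms a cell-surface site for plasminogen and its activator, rose in all 4 comparisons by 2.12, 3.34, 1.75 and 2.40 (12 months on day 14 and day 3, then 3 months in that order). S100a10 was called in 3, at 1.17 at 12 months on day 3 and 0.77 and 1.62 at 3 months. Plgrkt, a plasminogen receptor, was called at the same 3, at 1.07, 0.61 and 0.53. Serping1, the C1 inhibitor, was called on day 14, with 1.07 at 12 months and 3.51 at 3 months, and not on day 3. Furin, a protease that activates Mmp14, rose in 3, by 0.73 and 1.00 at 12 months and by 0.70 at 3 months on day 3. The integrin subunits Itgam and Itgb2 rose on day 14, by 0.44 and 0.54 at 12 months and by 0.60 and 0.59 at 3 months, and Itgam also at 3 months on day 3 by 0.22. The difference between the days of the hemisphere effect was called at 3 months for Serping1, Itgam and Itgb2, all larger on day 14. At 12 months it was called for Itgb2, larger on day 14, and for Plgrkt and Anxa2, smaller on day 14.

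The 16 cathepsins and cystatins, the lysosomal proteases and their inhibitors, were called in both directions. On day 14, 5 rose and none fell at 12 months and 8 rose and none fell at 3 months. On day 3, 6 rose and 5 fell at 12 months and 5 rose and 7 fell at 3 months. Their medians were 0.03, 0.13, 0.27 and 0.10 at 12 months on day 14 and day 3 and at 3 months on day 14 and day 3. Ctsb and its inhibitor Cstb rose in all 4 comparisons, Cstb by 0.88, 0.90, 0.83 and 0.70. Ctsd, a lysosomal aspartic protease, rose on day 14 by 0.39 at 12 months and 0.70 at 3 months, and Ctsa by 0.36 and 0.49. Ctsf, Ctsh, Ctsl, Ctss and the inhibitor Cst3 fell on day 3 at both ages, with Ctss at -0.52 at each age. Ctsk, a collagen-cleaving cathepsin, rose in 3 comparisons, by 0.69 and 0.48 at 12 months and by 1.19 at 3 months on day 14. Ctsc and Ctsz rose on day 3 at 12 months and on both days at 3 months, and Lgmn at 12 months on day 3 and at 3 months on day 14. The hemisphere effect of day 14 minus that of day 3 was called for 1 of the 16 genes at 12 months (Ctsc, lower) and for 5 at 3 months, all higher (Ctsd, Ctse, Ctsf, Ctsh and Ctsk).

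Among 20 tested genes for substrates of these proteases, 2 rose at 12 months on day 14 and 4 on day 3, and 2 rose on day 14 and 5 on day 3 at 3 months. None fell at 12 months on day 14, and 1, 1 and 2 fell in the other comparisons. Of all genes tested, 10.9%, 18.7%, 13.2% and 11.5% rose at 12 months on day 14 and day 3 and at 3 months on day 14 and day 3. Spp1, the secreted matrix protein osteopontin, rose in all 4, by 2.89, 5.31, 3.57 and 4.76. Fibronectin (Fn1) and thrombospondin (Thbs1) rose on day 3, by 1.04 and 1.25 at 12 months and by 2.02 and 2.09 at 3 months. Sparc, a matrix-binding glycoprotein, fell on day 3, with -0.54 at 12 months and -0.55 at 3 months. Lamb2, a laminin chain, rose at 12 months by 0.39 on day 14 and 0.40 on day 3.

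**Figure D5:**
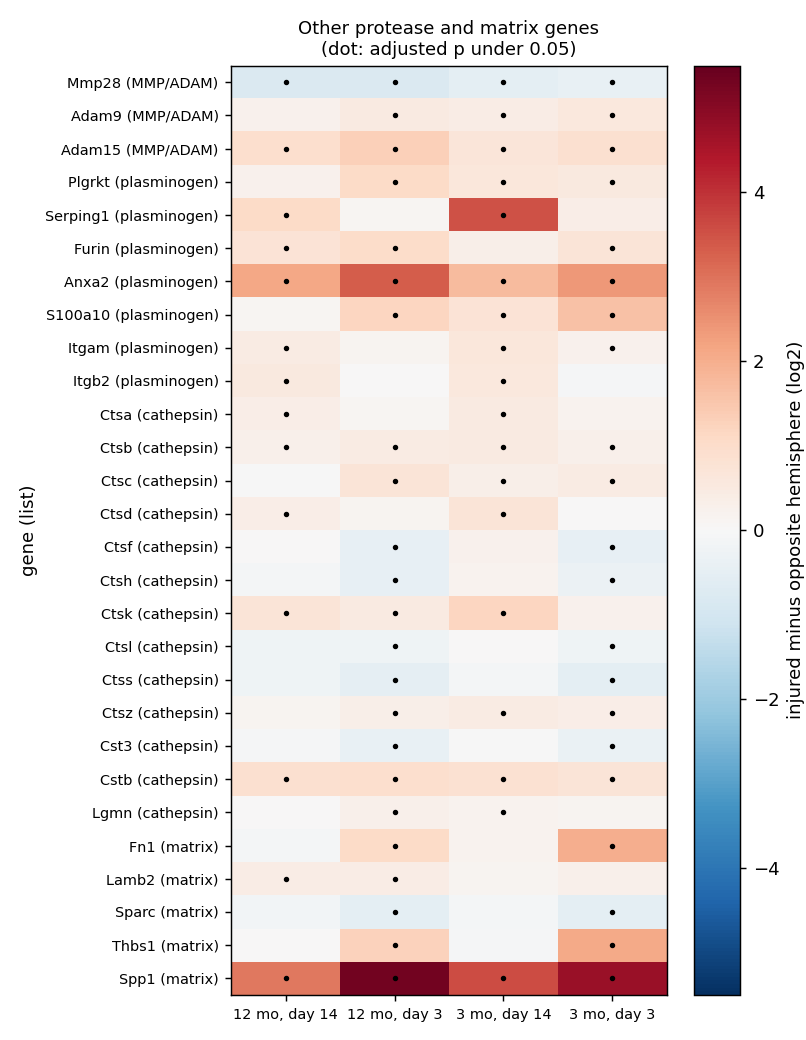
Difference between injured and opposite hemisphere in log2 units (colour) for the listed genes called in 2 or more of the 4 hemisphere comparisons, with a dot where the adjusted p is under 0.05. Spp1 and Anxa2 are high in all 4 columns, Mmp28 is low in all 4, and several cathepsins are low on day 3.

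Markers of other cells moved between the hemispheres as well. Of 9 tested microglial markers, 7 fell in injured hemispheres at 12 months on day 14, 8 on day 3, and 7 on each day at 3 months, and none rose. Their mean log2 signal on single arrays was 9.22 to 9.69 in injured hemispheres, 9.85 to 10.28 in opposite ones and 10.06 to 10.25 in sham. Of 11 markers of infiltrating monocytes and macrophages, 5 rose at 12 months on day 14 and 10 on day 3, and at 3 months 5 rose on day 14 and 11 on day 3, while 1 fell on day 14 at each age. Their mean signal reached 6.47 to 6.99 and 7.80 to 8.02 in injured hemispheres at 12 months on day 14 and day 3, and 6.68 to 6.83 and 7.22 to 8.48 at 3 months, against 6.18 to 6.49 in opposite hemispheres and 6.14 to 6.39 in sham. Of 8 markers of border-associated macrophages, 3 and 8 rose at 12 months and 3 and 7 at 3 months on day 14 and day 3, while Lyve1 fell on day 14 at both ages (-1.38 at 12 months and -1.37 at 3 months). Their mean signal was 5.60 to 6.66 and 6.69 to 7.26 in injured hemispheres at 12 months on day 14 and day 3, and 5.72 to 5.89 and 7.08 to 7.57 at 3 months, against 5.35 to 6.35 in opposite hemispheres and 5.47 to 5.72 in sham. Of 12 neutrophil markers, 1 and 2 rose at 12 months and 2 and 5 at 3 months on day 14 and day 3. On day 14, S100a9 fell at both ages (-1.61 at 12 months and -1.59 at 3 months) and S100a8 at 3 months (-1.45), and none fell on day 3. The mean signal of the list was 5.26 to 6.77 in injured hemispheres, 5.38 to 6.40 in opposite ones and 5.38 to 6.10 in sham. The part of these cells in the differences of Timp1, Plau, Plaur, Mmp12 and Mmp14 was not tested.

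Markers of vessel wall cells and of neural cells were counted in the same way. Of 11 tested markers of pericytes, smooth muscle and fibroblasts, none rose in any of the 4 comparisons, also at an unadjusted p under 0.05, and 0, 2, 1 and 1 fell. The fibroblast markers Dcn and Lum were at or below the 30th percentile on every array. Of 6 endothelial markers, 3 rose and 1 fell at 12 months on day 3, 1 rose and 3 fell at 3 months on day 3, and on day 14 2 fell at 12 months and 1 at 3 months, with Cdh5 lower in all 4 comparisons (-0.48 and -0.40 at 12 months on day 14 and day 3, -0.28 and -0.35 at 3 months). None of 8 astrocyte, 7 oligodendrocyte and 8 neuron markers rose in these 4 comparisons, also at an unadjusted p under 0.05, and up to 3 of each list fell in a comparison. Of 8 markers of T and NK cells, 2 rose at each age on day 14 (Cd4 and Cd8a) and 1 on day 3 (Cd8a). Cd3e, Cd3d, Cd2, Lck, Nkg7 and Gzmb were called in none of the 4 comparisons.

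Genes whose signal was most like that of a member over the 30 arrays are given as a description, since all arrays share the injury contrast. Timp1 was most like Spp1 (Pearson's r = 0.977), Cd14 (0.976) and Csf2ra (0.974). Plau was most like Apoc1 (0.959), Glipr1 (0.958) and Sulf2 (0.954). The nearest genes of Plaur were Cd44 (0.942), Trem1 (0.936) and Dab2 (0.934), and those of Mmp12 were Anpep (0.952), Smpdl3a (0.940) and Cxcr4 (0.923). For Mmp14 they were Dusp2 (0.938) and the substrates Thbs1 (0.917) and Fn1 (0.909). Timp2 was most like Rab39a (0.945), Dctd (0.934) and Aldh9a1 (0.933), and Mmp2 like H4c14 (0.915), Fcgrt (0.888) and Hist1h2bg (0.881). The values were lower for Adamts1, with Sorcs2 (0.824), Rgs9 (0.811) and Itih3 (0.804), for Mmp19, with Mrpl51 (0.720), Cdkn2c (0.710) and Snf8 (0.686), and for Timp3, with Prnd (0.641), Fitm2 (0.564) and Camp (0.542).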

How the data were processed

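Microglial RNA (50 ng) was, per the labels' protocols, amplified with the NuGEN Ovation Pico kit and hybridised to Affymetrix gene arrays. What was deposited are log2 signals that the authors made with RMA in Affymetrix Expression Console, per the submitters' processing notes, where no version was given. RMA can compress dim signals, so that fold changes of dim genes such as Mmp12 may be understated, which was not tested here.

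The table held 30 arrays in 10 groups of 3, and 0 columns were left unmapped. Groups came from the sample labels. Of 29214 probe sets, 15310 carried 1 gene symbol, 323 several and 13581 none in the platform annotation, and genes were named from the first kind only. Probe sets above the 30th percentile of their array on at least 3 arrays were kept, with the brightest one per gene (highest mean over the 30 arrays). A group-means model was fitted with limma 3.58.1 in R 4.3.3 to all 30 arrays (20 residual and 8.8 prior degrees of freedom), with p-values adjusted by Benjamini-Hochberg over 11675 genes in each of 21 comparisons. A second script in Python 3.11.15 read the promoters. Where every array of a group was at or below the 30th percentile, its signals were raised to that percentile to give a bound, a step added after the data had been examined. The code was tested on simulated data.

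Both hemispheres of an animal shared an animal code in the labels. The deviations of these pairs from their group means correlated at -0.079 to 0.211, with a consensus correlation of 0.072, and the animal was kept out of the model and used as a block in alternatives. The 10 members, the gene lists and the tests were chosen with earlier results of these data known. Named genes were the members, for each of them the 3 genes with the highest correlation over the 30 arrays, and listed genes called between hemispheres. Alternatives were no filter or a 50th percentile filter on dim probe sets, the mean of all probe sets of a gene, fits to the compared groups or to 1 age, quantile normalization, median centring, trend and robust moderation, array weights, the animal as a block, and leaving out each array.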

Additional observations from a re-analysis of the deposited data

Results flagged for a closer look

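The results below were picked out because a test of the difference between 2 hemisphere effects passed the threshold (limma, Benjamini-Hochberg over all genes tested). At 12 months the hemisphere difference of Timp1 was smaller on day 14 than on day 3 (-1.19 ± 0.22, adjusted p = 6e-04), and each of the 3 animals of day 14 had a smaller difference than each of the 3 of day 3. The hemisphere difference of Mmp2 at 12 months was -0.54 ± 0.16 on day 14 relative to day 3 (adjusted p = 0.043), with no call in 10 of the 12 repeats that left out 1 array. On day 3 the hemisphere difference of Timp1 was larger at 12 than at 3 months by 1.01 ± 0.22 (adjusted p = 0.011), with each of the 3 older animals above each of the 3 younger ones. Age moved with the code number in that comparison. The groups held 3 samples each and were therefore not screened for single outlying samples.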

How the results depend on the processing

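Timp1 and Plau kept their direction and their call in 68 of 68 alternative values of the 4 hemisphere comparisons, single arrays left out included. Of 68 such values each, the call was lost in 17 for Mmp12, 9 for Mmp14, 8 for Mmp2, 5 for Plaur and 3 for Timp2, and in 11 of 64 for Adamts1. These totals span all 4 comparisons, whereas a call can be lost only where it was made. That was all 4 for Mmp12 and Plaur, but day 3 alone for Mmp14 and Timp2, 3 months alone for Adamts1 and 12 months on day 3 alone for Mmp2. A call was gained in 1 value for Mmp2 and in 1 for Mmp14. Among values called in the main or the alternative fit, those that turned in sign did so under quantile normalization and against sham at 3 months. These were Mmp2 on day 3, to 0.28 (injured) and 0.35 (opposite), and Timp2 on day 14, to 0.014 (opposite). Differences near 0 that were not called also turned in sign. Mmp2 between hemispheres at 3 months on day 3, at -0.04, ran from -0.13 to 0.07 with single arrays left out. The cause of the turns under quantile normalization was not tested. The number of members called moved as follows. Injured against opposite at 3 months on day 14 gave 3 (1 age) and 2 (array weights) in place of 5. Opposite against sham gave 1 in place of 2 (stricter filter, 3 months, day 3), 1 in place of 3 (quantile, 3 months, day 14) and 1 in place of 0 (array weights, 12 months, day 3). Day 14 against day 3 gave 5 in place of 3 in injured hemispheres at 12 months (compared groups alone and 1 age), and in opposite ones at 3 months 0 (compared groups alone) or 2 (quantile; trend and robust) in place of 1. The difference of hemisphere effects between days gave 1 in place of 2 at 12 months (median centring), and at 3 months 1 (stricter filter; median centring; trend and robust) or 3 (animal as a random block) in place of 0. Beyond these and the fixed block of Adamts1 and Mmp12 given above, pairing by animal changed no other call.

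With single arrays left out, members called for injured against opposite hemispheres numbered 3 to 4 and 5 to 5 at 12 months on day 14 and day 3, and 2 to 4 and 5 to 7 at 3 months. Injured against sham gave 3 to 5, 5 to 7, 3 to 5 and 6 to 6 in that order, and opposite against sham 0 to 0, 0 to 0, 1 to 3 and 0 to 3. Day 14 against day 3 gave 2 to 3 at 12 and 4 to 7 at 3 months in injured hemispheres, and 0 to 0 and 0 to 1 in opposite ones. The difference of effects gave 1 to 2 (between days, 12 months), 0 to 3 (between days, 3 months), 0 to 0 (between ages, day 14) and 0 to 1 (between ages, day 3), and sham at 12 against 3 months 0 to 0.

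Counts over all genes moved too. Fits to the compared groups alone called 1412 genes in place of 2365 (injured against opposite, 3 months, day 14), 97 in place of 1185 (opposite, between days, 3 months), 141 in place of 445 (difference of effects between days, 3 months), and 2 in place of 1 (opposite against sham at 12 months, and effects between ages, both on day 14). Fits to 1 age called 503 and 232 in the second and the third of these. Quantile normalization called 2669 genes in place of 4522 (opposite against sham, 3 months, day 14) and 106 in place of 184 (effects between ages, day 3). Array weights called 460 in place of 150 and 2 in place of 1 (opposite against sham, 12 months, day 3 and day 14), 498 and 278 in place of 1185 and 124 (opposite, between days, 3 and 12 months), 353 in place of 184 (effects between ages, day 3) and 2637 in place of 1516 (sham, 12 against 3 months). Trend and robust moderation called 0 in place of 1 for opposite against sham at 12 months on day 14. With single arrays left out the ranges were 848 to 1227 (sham ages), 559 to 1129 and 58 to 131 (opposite, between days, 3 and 12 months), 255 to 568 and 412 to 649 (effects between days, 3 and 12 months), 87 to 261 and 1 to 8 (effects between ages, day 3 and day 14), and 61 to 207 and 0 to 1 (opposite against sham, 12 months, day 3 and day 14).

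Of all genes called, the percentage that were higher changed with the scaling. Under quantile normalization it was 45.0 in place of 32.0 (injured against sham, 3 months, day 14), 40.4 in place of 27.8 and 38.2 in place of 26.8 (opposite against sham, 3 months, day 3 and day 14), 59.9 in place of 74.6 and 60.6 in place of 81.9 (day 14 against day 3 at 3 months, injured and opposite), 43.6 in place of 32.7 (effects between days, 12 months) and 69.0 in place of 57.5 (sham ages). With median centring it was 77.5 in place of 65.0 and 75.2 in place of 65.1 (injured against opposite, 3 months on day 14 and 12 months on day 3) and 13.4 in place of 26.8 (opposite against sham, 3 months, day 14). Precision is limited by 3 arrays per group and, for Timp3, Mmp12 and Adamts1, by signals near the array background.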
